A study of Mus musculus with 4 samples.

Results

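The channels described here are the transient receptor potential (TRP) channels of the vanilloid (TRPV), ankyrin (TRPA), melastatin (TRPM) and canonical (TRPC) subfamilies, the mucolipins, the polycystin-2 relatives, the HCN channels and the acid-sensing channels. They were chosen by gene name in the array annotation, from the non-control probes whose name begins with Trp and a subfamily letter and digit, Hcn, Mcoln or Accn and a digit, or Pkd2. This gave 53 of the 55681 distinct oligonucleotide probes, which report on 36 of the 34786 genes and named transcripts of the array. Of these, 35 are channel genes, and Trpc4ap, which encodes a TRPC4-associated protein, was caught by the letters of its name. The 5 acid-sensing channels carry their older names Accn2, Accn1, Accn3, Accn4 and Accn5 on the array and are called Asic1 to Asic5 here.

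TRP channels are cation channels that open to heat, cold, irritants, osmotic stretch, lipids and receptor signalling, and several of them start the electrical response of pain-sensing neurons. HCN channels open when a membrane is hyperpolarised and carry a depolarising current that sets the rhythm and responsiveness of neurons. Acid-sensing channels let sodium into neurons when extracellular pH falls. All 3 groups are studied as pain channels in sensory ganglia, and some members also work in spinal neurons, glia or the cells that line the central canal.

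Spinal nerve ligation (SNL) is a model of neuropathic pain in which a spinal nerve is tied tightly. In the 2 SNL mice the L5 spinal nerve was ligated, and in the 2 sham mice it was exposed and left alone. All 4 were male ICR mice aged 8 weeks, an outbred strain with no introduced allele, and each gave 1 cord sample at day 10. Tissue is given as L4-L5 segments in the protocol and as L5 cord in the source field, after saline perfusion, and which side was taken is not stated. One Cy3-labelled array per mouse makes 4 arrays in all, so precision is limited by their number.

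Levels are log2 signals relative to the 75th percentile of the array's spots, so that 0 is the brightness at that percentile and 1 unit is a 2-fold step. Changes are SNL minus sham on that log2 scale, with the standard error (SE) of limma's fit. Signals of different probes cannot be ranked against each other, because each oligonucleotide binds with its own strength. In whole cord, fewer cells of a type and less RNA per cell cannot be told apart.

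Arrays of the groups differed in dim spots. Well above background lay 74.9% and 78.1% of spots in SNL mice, against 82.1% and 81.9% in sham mice, and no spot was saturated. Cord neurons were present on every array: the 6 neuronal markers averaged 3.04 and 2.92 in SNL mice and 2.78 and 2.85 in sham mice, and 1 of them was higher at unadjusted p under 0.05. The mean of sham replicate 1 is over 5 of them, as Syt1 had no value there. Of 10 microglia and macrophage markers, 8 were higher and 0 lower at that p, against 6.67% and 5.48% of all genes. Their list means were 2.28 and 2.08 in SNL mice and 1.37 and 1.33 in sham mice. Of 7 motor neuron markers, 6 were above background on all 4 arrays, and 4 of these were lower and 0 higher, with means of 0.13 and -0.026 in SNL mice against 1.24 and 1.01 in sham mice. The other, Mnx1, was above background in sham mice alone and is left out of these values. Single mice stood apart in markers of muscle and Schwann cells, and whether such tissue was carried along with the cord was not tested. Of 4 skeletal muscle markers, 3 were above background on all 4 arrays. These averaged 2.37 in SNL replicate 1, against -2.49 in SNL replicate 2 and -2.24 and -1.23 in sham mice. The other, Mylpf, was above background on 1 array of each group and is left out of these values. The 4 Schwann cell markers averaged 2.08 and 1.31 in SNL mice and 1.74 in sham replicate 1, against -2.20 in sham replicate 2.

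Of the 53 probes, 51 entered the test, being well above background on at least 2 arrays, and 44 were above it on all 4. The 2 that did not enter were above background on no array: the probe of Trpv5 and 1 of 3 Trpm3 probes. That left 35 genes tested and Trpv5 not tested, with 32 genes above background on all 4 arrays. A gene with several probes is represented by the one with the highest mean signal.

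The probes that carry the results are shown so that a reader can see what each value measured. All lie on mouse build mm9 as placed by the array's annotation, and each line is a stretch of 30 bases from within a probe of 60. Capitals mark AATAAA, the letters of the polyadenylation signal, where a probe holds them. The probe of Trpv6, the 1 gene that passed the adjusted test, lies at chr6:41570624-41570683 on the minus strand.
Trpv6: ttgccaccttccAATAAAatcatttcctga
The probe of Trpv2 (chr11:62413739-62413798, plus strand) reports on the other gene at unadjusted p under 0.05.
Trpv2: ccacacccgaggctactgaattttggtgga
Trpv1 (chr11:73073950-73074009, plus strand) and Pkd2l1 (chr19:44222606-44222665, minus strand) had changes of at least 1.5-fold with no overlap between groups.
Trpv1: gatgctgaggtcttcaaggattccatggcc
Pkd2l1: aagaaaaaggagcagatgggaatgactctc

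After ligation, 1 channel gene was far above sham and most others were close to it. Trpv6 was the 1 member at adjusted p under 0.05, higher in SNL, with 0 lower. Over all 29302 genes tested, 0.171% passed, 0.16% higher and 0.0102% lower. At a change of at least 2-fold with unadjusted p under 0.05, 1 member was higher, again Trpv6, and 0 lower, against 2.61% of all genes, 1.91% higher and 0.706% lower. At unadjusted p under 0.05 Trpv6 and Trpv2 were higher and 0 genes lower, 2 of 35 genes, against 12.1% of all genes, made up of 6.67% higher and 5.48% lower. A count of 2 in 35 is no larger a share than that of all genes. Changes lay above 0 for 20 genes and below 0 for 15, against 55.0% and 45.0% of all genes. The median change of the 35 was 0.021, beside 0.028 over all genes, and 32 of the 35 were within 0.5 of 0. Values of the groups did not overlap for 6 genes higher and 8 lower in SNL, against 25.2% and 21.0% of all genes, or 46.1% in either direction.

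**Figure D1:**
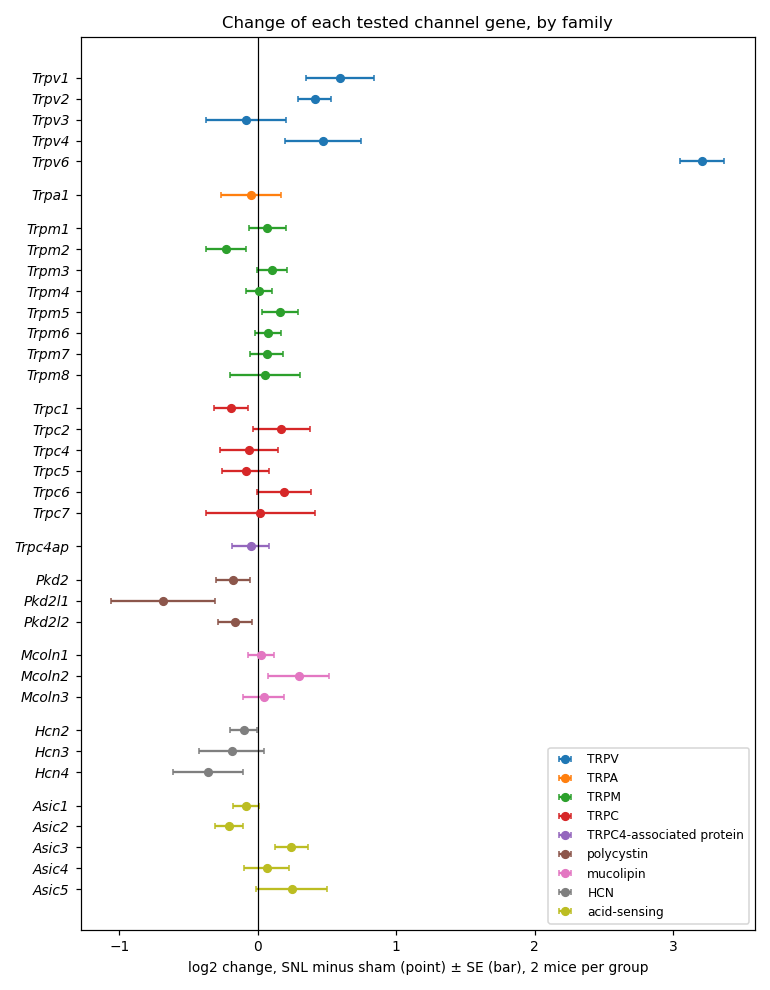
Change of each of the 35 tested genes, SNL minus sham on the log2 scale (points), with SE (bars), arranged by family with 2 mice per group. Trpv6 lies at 3.21, far from the other genes, which lie between -0.69 and 0.59.

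Trpv6 encodes a calcium-selective channel known from the calcium-absorbing epithelium of the gut, kidney and placenta. Its signal was -0.28 and -0.13 in SNL mice, against -3.58 and -3.25 in sham mice. Both SNL mice were well above both sham mice, and the spread within each group was small beside the gap. The change was 3.21 ± 0.16, or 9.26-fold, and passed in limma (adjusted p = 0.0483). All 4 arrays were well above background at this probe. The change stayed between 3.05 and 3.38 with any 1 mouse left out and was 3.02 with normexp background correction and 3.16 with quantile normalization. The call, which lies close to the threshold, ended with quantile normalization (adjusted p = 0.0655) and when any of the 4 mice was left out (adjusted p from 0.130 to 0.478), where 0 genes of the array passed, with 2217 to 4028 at unadjusted p under 0.05.

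Trpv6 has 1 probe on the array, so no other probe of the gene can be set beside it. Ephb6, which encodes an Eph-family receptor lacking kinase activity, lies next to it, with a probe on the opposite strand 122 bases away. That Ephb6 probe read 2.06 and 1.94 in SNL mice and 1.90 and 1.97 in sham mice, with overlapping groups and a change of 0.062 ± 0.11. A farther Ephb6 probe gave -0.018 ± 0.17. Of the T-cell receptor beta segments on the other side of Ephb6, the probe of constant region 1 had a change of 1.03 ± 0.14 and that of constant region 2 a change of 1.73 ± 0.19 (adjusted p = 0.126). Constant region 2 read -1.39 and -1.58 in SNL mice, against -3.42 and -3.02 in sham mice. A variable segment probe between these and Ephb6 had a change of 0.13 ± 0.21. Of 4 T-cell markers, 3 were above background on all 4 arrays. Of these 3, Cd3e was higher at unadjusted p under 0.05, against 6.67% of all genes. Cd3g was at 0.097 ± 0.52 and Cd3d at -0.46 ± 0.42, both with overlapping groups. Means over the 3 were -4.89 and -5.04 in SNL mice and -4.99 and -5.28 in sham mice. The remaining marker, Cd8b1, was above background in SNL mice alone and is left out of these values. Whether T cells have a part in the Trpv6 signal was not tested.

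**Figure D2:**
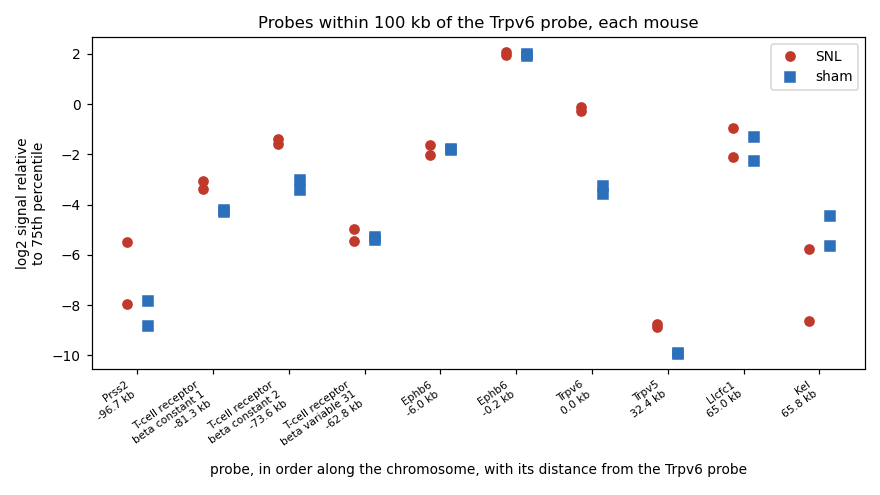
Log2 signal in each mouse (circles SNL, squares sham) at the probes within 100 kb of the Trpv6 probe, in order along the chromosome with the distance from it. The SNL and sham points part widely at Trpv6, part at both T-cell receptor beta constant regions and lie on one another at the nearest Ephb6 probe. They also part at Trpv5, which was below background on all 4 arrays. At Kel, above background in 1 SNL mouse and both sham mice, the SNL points lie lower and far apart.

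Trpv5 encodes the closest relative of Trpv6, a calcium channel of the kidney tubule, and its probe lies at chr6:41602985-41603044 beside Trpv6. It read -8.76 and -8.85 in SNL mice and -9.91 and -9.93 in sham mice, below background on all 4 arrays, so no fold is given. With no filter on dim probes its fitted difference passed, which rests on signals not separable from background.

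The promoter of Trpv6, the 1 called gene, is given for its sequence context. It spans 250 bases before to 50 after the start in RefSeq's GRCm38.p6 annotation, at chr6:41636356-41636655 on the minus strand, a build other than the array's.
Trpv6 promoter: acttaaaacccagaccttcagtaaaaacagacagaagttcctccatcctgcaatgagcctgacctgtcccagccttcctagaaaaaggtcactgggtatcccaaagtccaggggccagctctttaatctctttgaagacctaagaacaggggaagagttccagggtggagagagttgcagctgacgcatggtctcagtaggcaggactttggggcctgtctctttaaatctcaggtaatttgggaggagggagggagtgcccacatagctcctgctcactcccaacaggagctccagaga
Motifs were searched on both strands, TGANTCA of the AP-1 factors and TGACGTCA, the cyclic AMP response element, and this window held 0 of each, so no letters are in capitals. Of 27025 genes with a promoter in the table, 8.97% held the AP-1 letters in at least 1 promoter and 2.03% the cyclic AMP response element. Among 30 channel genes with a promoter there, 1 held the AP-1 letters, Trpv3, and 0 the other motif.

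The other vanilloid channels showed smaller differences, and 3 of them lay above sham without overlap, as did 25.2% of all genes. Trpv2 encodes a cation channel of macrophages and of large sensory neurons. Its signal was 1.36 and 1.20 in SNL mice, against 0.95 and 0.79 in sham mice, with both SNL mice higher. The change was 0.41 ± 0.12, or 1.33-fold, which was under the unadjusted threshold and did not pass after adjustment (limma, adjusted p = 0.357). It lost the unadjusted call without SNL replicate 1 (0.33), without sham replicate 1 (0.49) and without sham replicate 2 (0.33). The microglia and macrophage markers given above had a median change of 0.68, in the same direction, and their part in the Trpv2 value was not tested.

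Trpv1 encodes the capsaicin and heat receptor of pain-sensing neurons. Its signal was -5.38 and -5.47 in SNL mice, against -5.71 and -6.32 in sham mice. The groups did not overlap, but sham replicate 2 lay well below sham replicate 1. The change of 0.59 ± 0.25, or 1.51-fold, did not pass (limma, adjusted p = 0.473) and was 0.28 without sham replicate 2 and 0.90 without sham replicate 1. Markers of primary sensory neurons averaged -1.72 and -1.49 in SNL mice and -1.72 and -1.53 in sham mice. Of these 8 markers 6 were tested and 0 passed in either direction, and Scn10a and Mrgprd, which define pain-sensing neurons, did not enter the test. Only cord was sampled, so these means do not measure sensory neurons in the ganglia. The part of sensory neurons in the Trpv1 value was not tested.

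Trpv4 encodes an osmotic and mechanical stretch channel found in glia, endothelium and epithelium. Its brighter probe read -3.98 and -3.28 in SNL mice, against -4.07 and -4.13 in sham mice. SNL replicate 1 was close to the sham mice and SNL replicate 2 higher. The change was 0.47 ± 0.28 (adjusted p = 0.583). It was 0.12 without SNL replicate 2 and 0.82 without SNL replicate 1, where it passed the unadjusted threshold. A second probe within the gene gave 0.85 ± 0.33 (adjusted p over probes = 0.446), with -4.88 and -4.08 in SNL mice and -5.17 and -5.49 in sham mice. Both probes had the same order of mice within the SNL group. Trpv3, a warmth channel of skin keratinocytes, was above background in neither SNL mouse and in both sham mice, with a fitted change of -0.084 ± 0.29. Its values overlapped, at -7.24 and -7.98 in SNL mice and -7.59 and -7.46 in sham mice. The fitted change was -0.45 without SNL replicate 1 and 0.29 without SNL replicate 2. The lowest signal above background on an array was itself higher in SNL mice, -6.89 and -7.01, than in sham mice, -7.86 and -8.01. Changes of the 5 tested vanilloid genes lay above 0 for 4 and below 0 for 1, against 55.0% and 45.0% of all genes. With each scaling and correction tried the same count held. It became 5 and 0 without SNL replicate 2, and 4 and 0 among genes above background on all 4 arrays.

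**Figure D3:**
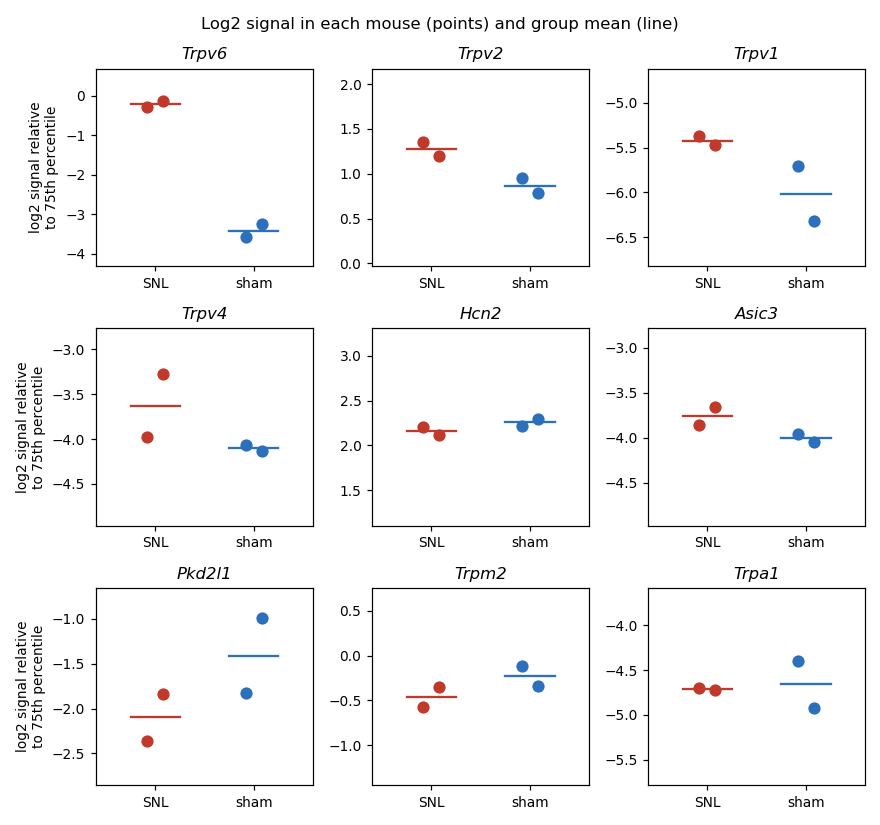
Log2 signal of 9 channel genes in each mouse (points), with group means (lines), SNL left and sham right; panels span about 2 log2 units each, and that of Trpv6 spans more. Of these 9, the Trpv6 panel alone has a gap between groups many times the spread within them.

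Trpa1 and Trpm8 are the textbook irritant and cold receptors. Trpa1 read -4.70 and -4.72 in SNL mice, inside the sham values of -4.39 and -4.92, with a change of -0.050 ± 0.21. This small value changed sign with normexp correction (0.17). Trpm8 read -7.59 and -6.94 in SNL mice, on either side of -7.31 in both sham mice, with a change of 0.050 ± 0.25. Its probe was above background in 1 of 2 SNL mice, so any difference at this brightness was hard to detect.

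Of the 8 melastatin genes, 7 lay above 0 and 1 below, against 55.0% and 45.0% of all genes. With normexp correction or quantile normalization the count became 6 and 2, and without sham replicate 1 it became 4 and 4. None passed at unadjusted p under 0.05, and the median was 0.065. Trpm2 encodes a channel gated by ADP-ribose and oxidative stress, which is expressed in microglia and macrophages. It read -0.57 and -0.35 in SNL mice and -0.12 and -0.34 in sham mice. SNL replicate 2 and sham replicate 2 were nearly level, and the change was -0.23 ± 0.14 (adjusted p = 0.602). A second Trpm2 probe gave -0.25 ± 0.14. These values lie opposite in sign to the microglia and macrophage markers, of which 10 of 10 had changes above 0.

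Trpm4 and Trpm5, calcium-activated channels that carry monovalent ions, had changes of 0.010 ± 0.095 and 0.16 ± 0.13. Trpm6 and Trpm7, magnesium-permeable channels fused to a kinase, had changes of 0.070 ± 0.094 and 0.063 ± 0.12. Quantile normalization turned the Trpm4 value to -0.11. Trpm3, a steroid- and heat-gated channel, had 2 probes above background. Its brighter probe gave 0.099 ± 0.11 and the other 0.34 ± 0.12 (limma, adjusted p over probes = 0.407). The second read -2.20 and -2.08 in SNL mice, against -2.56 and -2.41 in sham mice, with no overlap. They are annotated to different transcript variants, 7 for the brighter and 8 for the other, and lie at chr19:23000491-23000550 and chr19:22841152-22841211, both on the plus strand. Part of each is shown because their values differ.
Trpm3, brighter probe: ttctacatgccttattggatgatttatggg
Trpm3, second probe: aggacccaatgtgatctcaattgttttgga

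Trpm1, known from retinal bipolar cells and pigment cells, had 4 probes whose changes ran from -1.17 to 0.39. The brightest gave 0.067 ± 0.13, with -0.41 and -0.29 in SNL mice and -0.54 and -0.30 in sham mice. The lowest belonged to a dim probe that was above background in neither SNL mouse, at -7.33 in both, and read -5.74 and -6.57 in sham mice. Its fitted change was -1.17 ± 0.32 (limma, adjusted p over probes = 0.336), which rests on SNL signals not separable from background, so no fold is given. With normexp correction that fitted change was -0.69. The brightest probe lies at chr7:71371607-71371666 and the dim one at chr7:71369544-71369603, both on the plus strand, with annotated transcript variants 2 and 1.
Trpm1, brightest probe: aggcaagaagaaaaagaagaagaagaaaga
Trpm1, dim probe: gtggcagtttatttactatatatacctttg

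**Figure D4:**
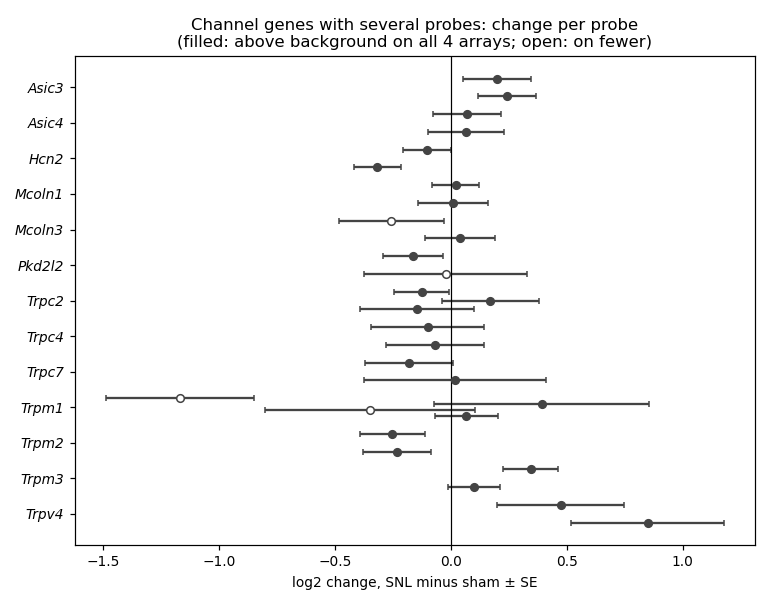
Change of each entering probe, SNL minus sham on the log2 scale with SE, for the 13 genes with several such probes; filled points were above background on all 4 arrays and open points on fewer. Probes of a gene lie close together for Asic4, Mcoln1 and Trpm2 and far apart for Trpm1.

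Across probes, 13 genes had at least 2 that entered, and in 4 of them the signs were mixed: Mcoln3, Trpc2, Trpc7 and Trpm1. The other 23 genes have 1 probe each on the array. Taken one by one, 3 channel probes were higher and 2 lower at unadjusted p under 0.05, against 6.22% and 5.98% of all 44718 probes tested. The higher ones were those of Trpv6 and Trpv2 and the second of Trpm3, and the lower ones were the second of Hcn2 and the dim one of Trpm1. That Trpm1 probe entered through the sham mice alone, where it was high. Among probes above background on all 4 arrays 3 were higher and 1 lower, against 6.56% and 5.35% of all such probes. After adjustment over all probes Trpv6 alone passed (limma, adjusted p = 0.0482), beside 0.152% of all probes.

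The canonical channels open downstream of phospholipase C and are tied to emptying of calcium stores. Of the 6 described, 3 lay above 0 and 3 below, with a median of -0.025, and 0 passed at unadjusted p under 0.05. With normexp correction the count was again 3 and 3, and with quantile normalization 2 above and 4 below. It turned on the sham mice, with 1 above and 5 below without sham replicate 1 and 5 above and 1 below without sham replicate 2. Trpc6 and Trpc7, which diacylglycerol opens, had changes of 0.19 ± 0.20 and 0.017 ± 0.39, and quantile normalization put Trpc7 at -0.096. Trpc1, a subunit of mixed channels, had a change of -0.19 ± 0.12, Trpc4 of -0.067 ± 0.21 and Trpc5 of -0.087 ± 0.17. Trpc2, the pheromone-transduction channel of the mouse vomeronasal organ, had probes at 0.17, -0.13 and -0.15. For 2 of these 3 the current RefSeq entry is a readthrough named Xntrpc. Trpc4ap had a change of -0.053 ± 0.13.

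Partners of these channels in store refilling and phospholipase C signalling were likewise close to sham. All 19 were tested, with a median of 0.010 and 0 past the adjusted threshold. Those under the unadjusted threshold of 0.05 were 2 higher and 1 lower in SNL, against 6.67% and 5.48% of all genes. Plcg2, a phospholipase C of immune cells and microglia, had a change of 0.44 ± 0.10 (adjusted p = 0.291). Itpr1, the calcium release channel of the endoplasmic reticulum, was at 0.30 ± 0.097 (adjusted p = 0.384). Homer2, a scaffold that links receptors to it, was at -0.34 ± 0.099 (adjusted p = 0.354).

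The polycystin genes had changes below 0 in 3 of 3, against 45.0% of all genes, also with normexp correction and quantile normalization, and 0 passed. Pkd2l1 encodes an acid- and calcium-sensitive channel that marks the neurons contacting cerebrospinal fluid around the central canal. It read -2.36 and -1.834 in SNL mice, against -1.825 and -0.995 in sham mice. The groups barely parted, SNL replicate 2 lying just below sham replicate 1, and the mice of each group differed widely. The change was -0.69 ± 0.37, or 1.61-fold lower (limma, adjusted p = 0.562), with -0.27 without sham replicate 2 and -1.10 without sham replicate 1. Other markers of these neurons, 5 in number, had 0 past the threshold and none with groups apart. The 4 of them above background on all 4 arrays averaged -2.30 and -2.07 in SNL mice and -2.49 and -2.00 in sham mice. Pkd2, the ciliary and endoplasmic reticulum channel mutated in polycystic kidney disease, had a change of -0.18 ± 0.12. Pkd2l2 had a change of -0.16 ± 0.12 and a dimmer probe at -0.022. With normexp correction Pkd2 was at -0.40 and Pkd2l2 at -0.34, and both then passed the unadjusted threshold. Of 6 partner genes 5 were tested, and 1 was higher at unadjusted p under 0.05, against 6.67% of all genes. That one, Pkdrej, a relative of polycystin-1 known from mouse sperm, was at 0.40 ± 0.12 (adjusted p = 0.365). After adjustment 0 passed. Pkd1, the usual partner of Pkd2, was at -0.10 ± 0.11.

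The mucolipins are calcium and iron channels of endosomes and lysosomes. Mcoln1, the gene of mucolipidosis type IV, read 1.77 and 1.80 in SNL mice and 1.72 and 1.81 in sham mice, with a change of 0.021 ± 0.095. Mcoln3 had a change of 0.041 ± 0.15, and its dimmer probe, above background in neither SNL mouse, one of -0.26. Mcoln2, which is expressed in immune cells, was at 0.29 ± 0.22, with -4.17 and -3.64 in SNL mice and -4.12 and -4.28 in sham mice, which overlap. It was 0.029 without SNL replicate 2 and 0.56 without SNL replicate 1, where it passed the unadjusted threshold. All 3 lay above 0, against 55.0% of all genes, but 2 of the 3 did with normexp correction and 1 with quantile normalization. Among 8 endolysosomal partners 0 were higher and 1 lower at unadjusted p under 0.05, against 6.67% and 5.48% of all genes. That one, Tfeb, a transcription factor of lysosomal genes, was at -0.30 ± 0.095 (adjusted p = 0.377).

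HCN genes with values here had changes below 0 in 3 of 3, against 45.0% of all genes, with a median of -0.19. So did 4 of 4 probes, 2 of which are of Hcn2. Each scaling and correction kept 3 of 3 genes below 0. At gene level 0 passed at unadjusted p under 0.05.

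Hcn2 encodes the cyclic AMP-sensitive channel studied in pain-sensing neurons. Its brighter probe read 2.20 and 2.11 in SNL mice, against 2.22 and 2.30 in sham mice. The groups did not overlap but nearly touched, and the change was -0.10 ± 0.098 (adjusted p = 0.730). A second Hcn2 probe read 1.88 and 1.83 in SNL mice, against 2.13 and 2.22 in sham mice, with a wider gap. Its change was -0.32 ± 0.10 (limma, adjusted p over probes = 0.381). The probes lie at chr10:79198412-79198471 and chr10:79198592-79198651 on the plus strand, close together in the gene, and are shown because they differ in size of change.
Hcn2, brighter probe: ccccatcgccctgcgcccacccccatcgcc
Hcn2, second probe: tgcaatactcggcccgccggcttcccgctg

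Hcn4 encodes the pacemaker channel of the heart, and Hcn3 a little-studied relative. Groups overlapped for both, with changes of -0.36 ± 0.25 for Hcn4 and -0.19 ± 0.23 for Hcn3, and Hcn3 was at 0.048 without SNL replicate 1. Hcn4 was at -0.61 without sham replicate 1, -0.11 without sham replicate 2 and -0.093 with normexp correction. Its probe was dim, at -6.56 and -6.17 in SNL mice and -6.26 and -5.76 in sham mice, though above background on all 4 arrays. Of the 7 motor neuron markers given above, 6 had changes below 0, as the HCN genes did, and 1 above. Isl1, at -0.022 ± 0.24, and Prph, at 0.078 ± 0.14, had overlapping groups. The part of motor neurons in the HCN values was not tested. Among 8 HCN partners 7 were tested, and 0 passed after adjustment. At unadjusted p under 0.05, 1 was higher and 1 lower, against 6.67% and 5.48% of all genes. Mrvi1, which encodes a membrane protein of the endoplasmic reticulum that modulates Hcn4, read -2.53 and -2.70 in SNL mice, against -0.64 and -0.99 in sham mice. Both SNL mice were far below, and its change was -1.80 ± 0.17 (limma, adjusted p = 0.0984). Its relative Lrmp, also a modulator of Hcn4, was at 0.37 ± 0.12 (adjusted p = 0.383). Pex5l, the main trafficking subunit of HCN channels in neurons, was at -0.22 ± 0.095 (adjusted p = 0.487).

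**Figure D5:**
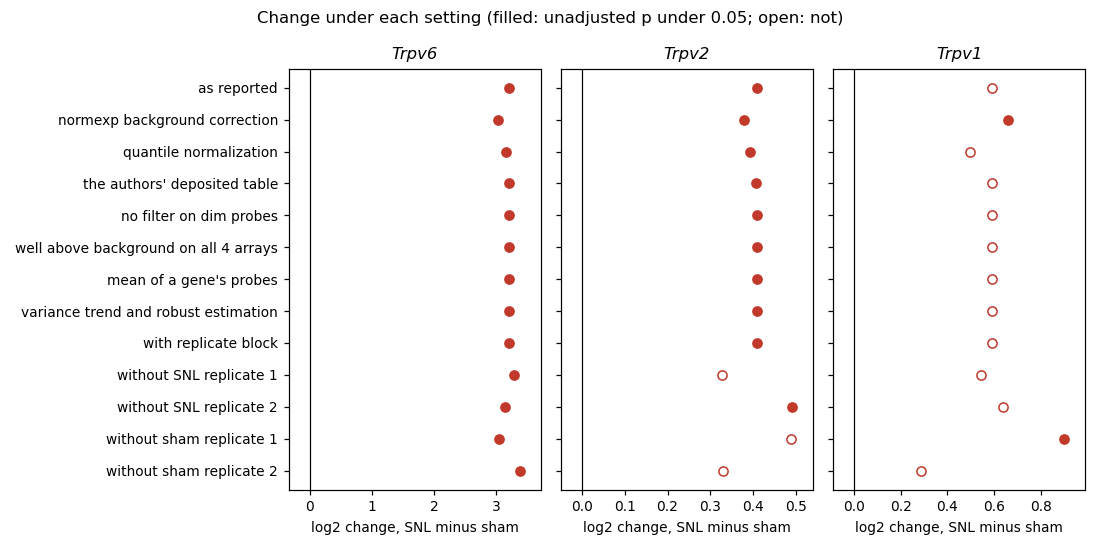
Change of Trpv6, Trpv2 and Trpv1, SNL minus sham on the log2 scale, as reported and under each alternative; filled points have unadjusted p under 0.05 and open points do not. Trpv6 stays filled throughout and Trpv2 loses the unadjusted threshold with some mice left out, while Trpv1, which keeps its sign, passes it with normexp correction and without sham replicate 1.

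Acid-sensing channels split by member, with 3 of 5 above 0 and 2 below, and 0 passed. Asic1, the main acid sensor of spinal neurons, read 1.75 and 1.84 in SNL mice, against 1.87 and 1.89 in sham mice. The gap between groups was smaller than the spread between the SNL mice, and the change was -0.086 ± 0.094 (adjusted p = 0.760). With normexp correction it was -0.39 and passed the unadjusted threshold. Asic2, which combines with Asic1 in central neurons, read 1.24 and 1.17 in SNL mice, against 1.35 and 1.47 in sham mice, with a change of -0.21 ± 0.10 (adjusted p = 0.527), and -0.46 with that correction, where it passed too.

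Asic3, the acid sensor of sensory neurons of muscle and skin, read -3.86 and -3.66 in SNL mice, against -3.95 and -4.05 in sham mice. SNL mice were slightly higher, with a change of 0.24 ± 0.12 (adjusted p = 0.532), and its second probe gave 0.20 ± 0.15. Asic4, whose protein gives no acid current of its own, had probes at 0.064 and 0.069, and normexp correction put the first at -0.14, which made the family 2 above and 3 below 0. Asic5, a channel studied in gut and cerebellum, was at 0.24 ± 0.26 and above background in 1 of 2 SNL mice. Of 8 relatives and partners, among them epithelial sodium channel subunits and stomatins, 6 were tested and 0 passed in either direction at unadjusted p under 0.05.

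Other channels of sensory transduction were also close to sham. Of 13 on the array, among them the Piezo, background potassium (Kcnk) and P2X channels, 12 were tested, with a median of -0.043. In limma 0 were higher and 0 lower at unadjusted p under 0.05, against 6.67% and 5.48% of all genes. Ano1, a calcium-activated chloride channel that works beside Trpv1 in pain-sensing neurons, was nearest to the threshold at -0.42 ± 0.18 (adjusted p = 0.483), which was named after its value was seen.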

How the data were processed

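Total RNA of lumbar cord from 2 SNL and 2 sham mice was amplified, labelled with Cy3 and hybridised to 1-colour Agilent arrays, per the labels' protocols. The authors deposited scanner files of linear intensity made with Agilent Feature Extraction, whose version is 10.7.3.1 in the headers and 10.7.1.1 in the submitters' processing notes. Array design 028005 places its probes on mm9, per the file headers. The authors' deposited log2 table followed the scanner values with a correlation that rounds to 1, offset by 0.122 to 0.132. It is thus log2, scaled near the 75th percentile and not centred per gene, with brighter spots higher, though the spots behind that percentile stay unknown. Its column medians were -3.48 and -3.33 in SNL mice and -3.45 and -3.52 in sham mice.

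Here log2 of the processed intensity had the 75th percentile of the array's 59305 non-control spots subtracted. Outlier-flagged spots were dropped and spots of a probe averaged. Probes well above background on at least 2 of 4 arrays, with a value in each group, entered. Each gene took its brightest entering probe. Symbols came from a RefSeq table (GRCm38.p6) through the accession for 26762 probes, a symbol for 3819 and a synonym for 639, and 24461 kept the array's name.

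SNL was compared with sham by limma 3.58.1 in R 4.3.3 (lmFit, eBayes, no covariate, two-sided), with Benjamini-Hochberg adjustment over 29302 genes, and the code was tested on simulated data. The fit had 2 residual and 1.65 prior degrees of freedom. The smallest p an exact permutation of 2 against 2 mice allows is 0.333, and that test was left out. The replicates are separate mice per the labels' protocols.

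Some genes that the naming rule also takes are not reported here and enter no count of members. Every other member is named. Values per mouse are given at unadjusted p under 0.05, at 1.5-fold with groups apart, and for a fixed list of textbook channels. From each partner list up to 3 genes at unadjusted p under 0.05 are named. Other genes named or given per mouse, for their probes or context, were chosen after seeing values. Members and lists were chosen with earlier results of these data known. Alternatives were normexp correction (offset 50), quantile normalization, the authors' table, other dim-probe filters, the mean of a gene's probes, a variance trend, a replicate block and leaving out each mouse.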

Additional observations from a re-analysis of the deposited data

How the results depend on the processing

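All 4 arrays share 1 slide and 1 scan day, so a block for either was not possible. Where an alternative changed a value below, the cause was not tested, except that leaving out a mouse leaves fewer samples and the lone mouse is then assumed to vary like the other group. Dim probes limit Trpv3, Trpm8, Asic5 and Trpv5, which lay near or below background, and Hcn4, which was dim but above it on all 4 arrays.

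Against 50 called genes, 133 were called with normexp correction, 11 with quantile normalization, 539 with a trended, robust variance and 1219 when dim probes were not filtered. With the replicate number as a block 0 genes were called (2827 had unadjusted p under 0.05 in limma), and Trpv6 lost its call (adjusted p = 0.187), but the numbers only name the mice, whose deviations correlated at -0.027. Leaving out each mouse gave 0 to 0 called genes (2217 to 4028 at unadjusted p under 0.05). Channel genes at unadjusted p under 0.05 numbered 2, against 8 with normexp correction (Trpv6, Trpv2 and Trpv1 higher; Asic1, Asic2, Pkd2, Pkd2l2 and Trpc1 lower) and 1 to 4 with a mouse left out. Channel probes numbered 5, against 13 with normexp correction and 2 to 5 with a mouse left out, alternatives added for probes after seeing the data. The channel median of 0.021 was -0.050 with the mean of probes, and ran from -0.053 without sham replicate 1 to 0.067 without sham replicate 2.

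Of 417 gene values under alternatives, 379 kept direction and side of the adjusted threshold, 6 lost it (all Trpv6) and 32 changed sign, in 15 genes with reported changes of at most 0.19 in size. With normexp correction Trpa1 was at 0.17, Trpc4ap at 0.064, Trpm1 at -0.058, Asic4 at -0.14 and Mcoln1 at -0.087. With quantile normalization Trpc7 was at -0.096, Trpm4 at -0.11, Mcoln1 at -0.019 and Mcoln3 at -0.017. With the mean of probes, which averages in a gene's dimmer probes, Trpc7 was at -0.082, Trpc2 at -0.034, Trpm1 at -0.26 and Mcoln3 at -0.11. The lowest probes of Trpm1 (-1.17) and Mcoln3 (-0.26) were above background in neither SNL mouse. With a mouse left out Hcn3 ran from -0.43 to 0.048, Trpa1 from -0.31 to 0.21, Trpc2 from -0.080 to 0.42, Trpc4 from -0.26 to 0.12, Trpc5 from -0.25 to 0.077, Trpc7 from -0.43 to 0.47, Trpc4ap from -0.18 to 0.079, Trpm1 from -0.053 to 0.19, Trpm4 from -0.027 to 0.046, Trpm7 from -0.043 to 0.17, Trpm8 from -0.27 to 0.37, Trpv3 from -0.45 to 0.29, Asic4 from -0.12 to 0.25, Mcoln1 from -0.026 to 0.067 and Mcoln3 from -0.12 to 0.20.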
